A study of Mus musculus with 7 samples.

Results

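The eye field and optic homeobox genes followed here were Vsx1, Six3, Six6, Rax, Mitf and Hesx1. These 6 genes were picked by name with results of the same comparison in view, so their own values are a description and carry no test. All probes whose RefSeq transcript maps to one of them were taken. Of the 6 genes 5 had a named probe, out of 17178 genes named on the array, and 2 of them, Six3 and Mitf, were among the 13350 genes tested. No probe was matched to Rax, which is not analysed here. Mitf encodes a basic helix-loop-helix leucine zipper factor and is no homeobox gene, although it belongs to the same optic programme.

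Messenger RNA was measured at E12.5 in the ganglionic eminences and septum, which make up the subpallium, with 1 female CD-1 mouse embryo on each of 7 arrays, called controls 1 to 4 and cKO embryos 1 to 3. The 4 controls are labelled Control, with no further genotype given; the 3 others are labelled Otx2 cKO and carry a floxed Otx2 allele recombined by RxCre. This Cre is named after Rx, the older name of the member Rax; which regulatory fragment drives it was not stated. Per the series description it acts in most of the forebrain but spares a caudal dorsomedial domain, where choroid plexus and cortical hem arise. The comparison asks what Otx2, a homeodomain factor of the anterior neural plate, forebrain and eye, controls in the subpallium.

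Six3, Six6 and Rax are homeobox genes of the eye field, the part of the anterior neural plate that forms both retinas. Six3 is also needed for the forebrain itself, where it restrains posteriorizing WNT signals, and Hesx1, a repressor of the anterior neural ridge and of the pituitary placode, acts near it. Later in the eye, Mitf specifies the retinal pigment epithelium, and it also drives melanocytes elsewhere in the body. Vsx1 acts later still, in bipolar cells of the retina.

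The stretch upstream of a gene's start is shown for 3 members because Otx2 and most of the members encode DNA-binding homeodomain proteins. The 250 bases before each RefSeq start (GRCm38.p6, 7 starts of 5 members) were searched on both strands for TAATCC, the sequence preferred by Otx2-type homeodomains, and for TAAT, the core bound by many homeodomains; each TAATCC holds a TAAT core. The longer motif lay in 1 of the 7 stretches and in 6.25% of all 32851 promoter stretches of that length. TAAT lay in 5 of the 7 and in 54.9% of all. The single TAATCC match was at an inner start of Mitf. Hesx1 held 8 TAAT cores, more than any other of the 7 stretches, Six3 held 3 and Six6 held 0. The GC content of these stretches was 34%, 48.8% and 62.8%, and the part of base composition in the counts was not tested. A match describes letters and not a bound site. The Mitf stretch (chr6:97929567-97929816, plus strand) is printed with the TAATCC match, here on the minus strand, in capitals. The Six3 stretch (chr17:85620584-85620833, plus strand) and the Hesx1 stretch (chr14:27000112-27000361, plus strand) have each TAAT core, on either strand, in capitals.
Mitf: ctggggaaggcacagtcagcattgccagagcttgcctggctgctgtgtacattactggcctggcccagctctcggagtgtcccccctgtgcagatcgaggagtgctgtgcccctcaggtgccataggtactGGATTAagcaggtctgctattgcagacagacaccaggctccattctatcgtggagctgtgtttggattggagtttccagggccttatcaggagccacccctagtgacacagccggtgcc
Six3: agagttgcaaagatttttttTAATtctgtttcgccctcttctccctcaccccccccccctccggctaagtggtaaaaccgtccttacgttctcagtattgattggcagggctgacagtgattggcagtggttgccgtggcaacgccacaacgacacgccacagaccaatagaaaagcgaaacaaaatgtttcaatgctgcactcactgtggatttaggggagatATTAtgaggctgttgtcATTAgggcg
Hesx1: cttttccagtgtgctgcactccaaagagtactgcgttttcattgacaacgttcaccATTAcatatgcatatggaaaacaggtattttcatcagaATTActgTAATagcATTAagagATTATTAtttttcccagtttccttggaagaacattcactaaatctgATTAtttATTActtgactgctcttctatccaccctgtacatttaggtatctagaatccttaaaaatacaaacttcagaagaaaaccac

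A pair of facts about the whole series bears on the values below. The probe of the targeted gene gave a higher signal on all arrays labelled Otx2 cKO than on any control (difference 1.51 ± 0.14 on the log2 scale, SE, n = 4 and 3; limma, adjusted p = 0.0182, and 0.00262 to 0.307 over 21 alternatives with 12 calls). The part of Otx2 that the floxed allele removes was not stated in the sources read, so groups are called by their labels and every direction rests on them. All 13 markers of the dissected subpallium were measured, with a summed level of 12810% to 13900% of the array's 75th percentile of signal in controls and 11320% to 13540% in arrays labelled Otx2 cKO. Markers of mesenchyme and pericytes, in contrast, ranged from 336.6% to 2460% in controls and from 375.1% to 4298% in the others, highest in cKO embryo 2 and lowest in control 2. Controls 1 and 2 shared slide 1 with cKO embryo 1, and the other 4 arrays were on slide 2. By the number that opens each litter label, controls 2 and 3 and cKO embryos 1 and 3 came from litter 2.

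Six3 was well above background on all 7 arrays, and its levels in the 2 groups overlapped. Values are on a log2 scale on which 0 is the 75th percentile of signal on that array. Six3 stood at -1.87, -1.66, -1.79 and -1.71 in controls 1 to 4 and at -1.80, -1.68 and -2.02 in cKO embryos 1 to 3. Of the 3, cKO embryos 1 and 2 lay inside the control range and cKO embryo 3 lay below it. The means were -1.76 ± 0.09 (SD, n = 4) and -1.83 ± 0.17 (SD, n = 3), a difference of -0.08 ± 0.11 (SE). The highest and the lowest of the 7 arrays differed 1.29-fold. The scanner software gave the single Six3 spot an error of 2.51% to 3.20% of the 75th percentile on levels of 24.7% to 31.7%. Without cKO embryo 3 the difference was 0.01.

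Within slide 1 the Six3 difference was -0.04, within slide 2 -0.10, and within litter 2 -0.19. In the authors' deposited value table, which is on another log2 scale, it was -0.15.

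**Figure D1:**
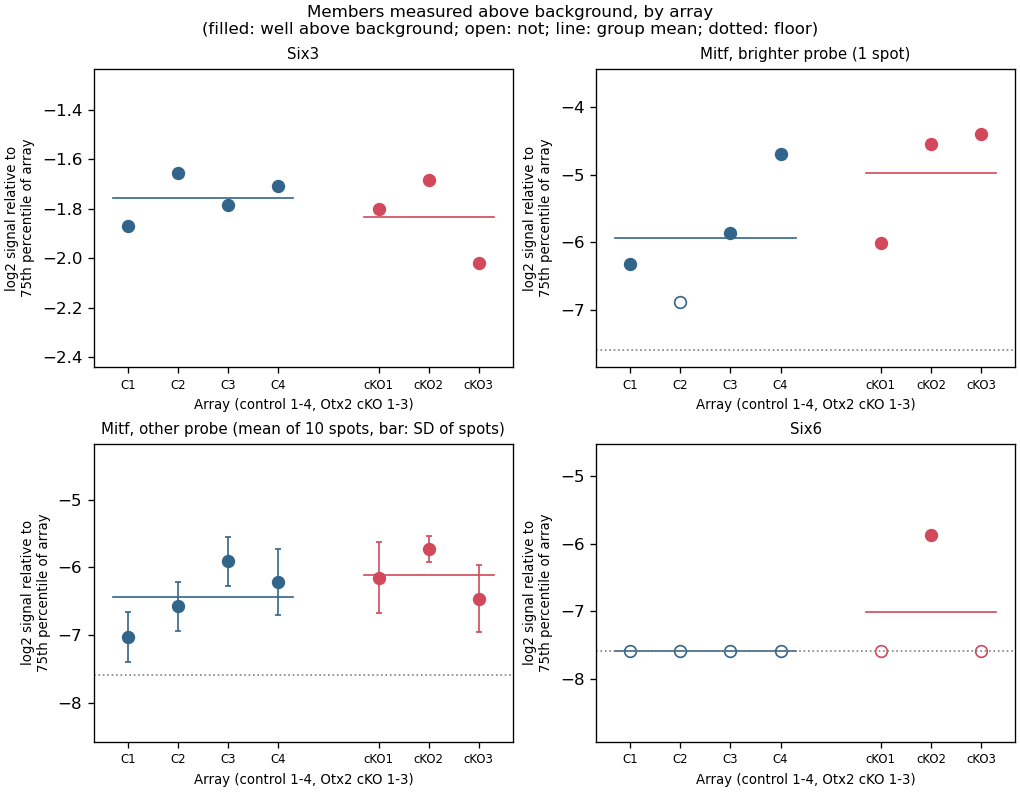
Log2 signal (relative to the 75th percentile of the array) of Six3, of both Mitf probes and of Six6 on 4 control arrays (blue) and 3 arrays labelled Otx2 cKO (red); filled points are well above background, open points are not, horizontal lines are group means, the dotted line is the floor of -7.59, and bars on the second Mitf probe are the SD over its spots. The 2 groups overlap in every panel, and Six6 leaves the floor on cKO embryo 2 alone.

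Mitf was dim, and its 2 probes gave different pictures. The brighter probe, with 1 spot, stood at -6.31, -6.89, -5.86 and -4.69 in controls 1 to 4 and at -6.00, -4.54 and -4.39 in cKO embryos 1 to 3. Control 2 was not well above background. Control 4 lay close to cKO embryos 2 and 3, while cKO embryo 1 lay among the other controls, so the groups overlapped. The means were -5.94 ± 0.93 (SD, n = 4) and -4.98 ± 0.89 (SD, n = 3), a difference of 0.96 ± 0.59 (SE), about as large as the spread within each group. It was 0.60 within slide 1, 0.81 within slide 2 and 1.18 within litter 2. Leaving out 1 array gave 0.64 (without control 2) to 1.47 (without cKO embryo 1), and the authors' deposited table gave 0.52. For this probe every array on slide 1 lay below every array on slide 2. The control means were -6.60 on slide 1 and -5.28 on slide 2, a gap wider than that between the groups. With slide as a block the group difference was 0.72.

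The second Mitf probe, a mean over 10 spots less those marked as outliers, stood at -7.03, -6.58, -5.91 and -6.21 in controls 1 to 4 and at -6.15, -5.72 and -6.46 in cKO embryos 1 to 3. Here cKO embryo 3, the highest array of the brighter probe, lay within the control range. The difference was 0.32; it was 0.65 within slide 1, -0.03 within slide 2 and -0.06 within litter 2. In the authors' deposited table it was -0.02. The SD over spots of this probe within an array was 0.19 to 0.52. In cKO embryo 2, the highest array, all 10 spots were well above background, with signals of 43.3 to 62.6 in scanner units. In control 1, the lowest, 6 of 10 were, with signals of 12.6 to 30.3. Both probes carry the same RefSeq accession, and which Mitf isoforms each one detects was not stated.

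Of the 2 tested members 0 had groups that did not overlap, while 11.8% of the 13350 genes tested had (4.85% with every array labelled Otx2 cKO above, 6.99% with every one below). Since the members were chosen on this contrast, nothing is read from that count.

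Six6 was seen on 1 array only. Its signal was -0.018%, 0.22%, 0.19% and 0.35% of the 75th percentile in controls 1 to 4 and -0.094%, 1.71% and -0.27% in cKO embryos 1 to 3. Only cKO embryo 2 was well above background, with 1.71% and a scanner error of 0.38%, where the lowest signal well above background on that array was 0.30%. The 6 other values have no order. In the authors' deposited table cKO embryo 2 was also the highest, at 6.18 against 5.11 to 5.58 on the other arrays. Of the 17178 named genes 162 (0.943%) were well above background on cKO embryo 2 alone, and on each other array 70 to 148 were (0.407% to 0.862%). Six6 is 1 of those 162, and no fold is given for it.

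**Figure D2:**
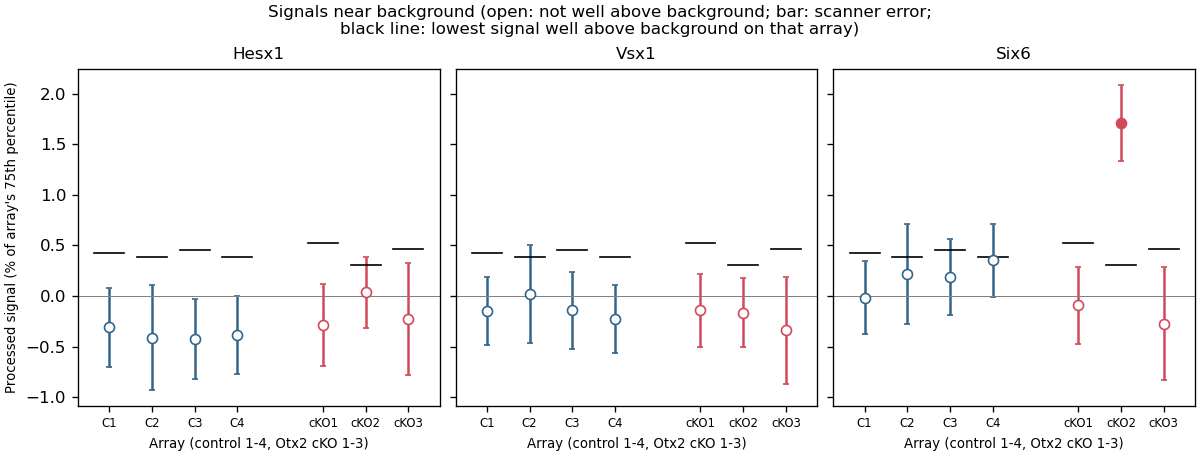
Processed signal of Hesx1, Vsx1 and Six6 as a percentage of the array's 75th percentile on 4 control arrays (blue) and 3 arrays labelled Otx2 cKO (red); bars are the scanner software's error, open points are not well above background and the short black lines mark the lowest signal well above background on each array. Of the 21 points 1 is filled, Six6 on cKO embryo 2 at 1.71%.

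Hesx1 and Vsx1 were not well above background on any of the 7 arrays. The Hesx1 signal was -0.43% to -0.31% of the 75th percentile in controls and -0.29% to 0.037% in arrays labelled Otx2 cKO. The Vsx1 signal was -0.23% to 0.022% in controls and -0.34% to -0.14% in the others. The lowest signals well above background were 0.30% to 0.52%, and values under them have no order. All 14 values therefore sit at the floor, and a difference in Hesx1 or Vsx1 was not measurable at these signals. In bulk tissue, fewer cells that express a gene and less of its RNA per cell cannot be told apart.

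Among 16 other transcription factors of the eye field and optic vesicle reported here, all tested, 0 rose and 0 fell (limma; unadjusted p under 0.05 in 3 with a positive and 0 with a negative difference); over all genes tested 0.0824% rose and 0.112% fell. In 3 of the 16 every measured array labelled Otx2 cKO was above every control, as in 4.85% of all genes tested. They were Vax2, Otx1 and Lhx2, the last named after its values were seen. Vax2, a homeobox gene of the ventral optic vesicle, stood at -6.49, -6.25, -4.49 and -4.76 in controls 1 to 4 and at -3.27, -3.52 and -3.64 in cKO embryos 1 to 3. The difference was 2.02 ± 0.52 (SE, n = 4 and 3; limma, adjusted p = 0.285). The controls on slide 1 were the lowest 2 arrays, and the difference was 3.10 within slide 1 but 1.05 within slide 2.

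Otx1, the paralog of Otx2, stood at -4.04, -3.73, -4.03 and -3.48 in controls and at -3.38, -3.05 and -2.96 in the others, 0.69 ± 0.17 apart (SE, n = 4 and 3; adjusted p = 0.285 in limma). Its dimmer probe gave 1.04. Lhx2, a LIM homeobox gene that the eye field and the telencephalon both need, stood at 5.36, 5.21, 5.41 and 5.57 in controls and at 5.58 and 5.92 in cKO embryos 1 and 3; its spot on cKO embryo 2 was marked as an outlier and left out. The difference was 0.36 ± 0.15 (SE, n = 4 and 2; limma, adjusted p = 0.473).

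**Figure D3:**
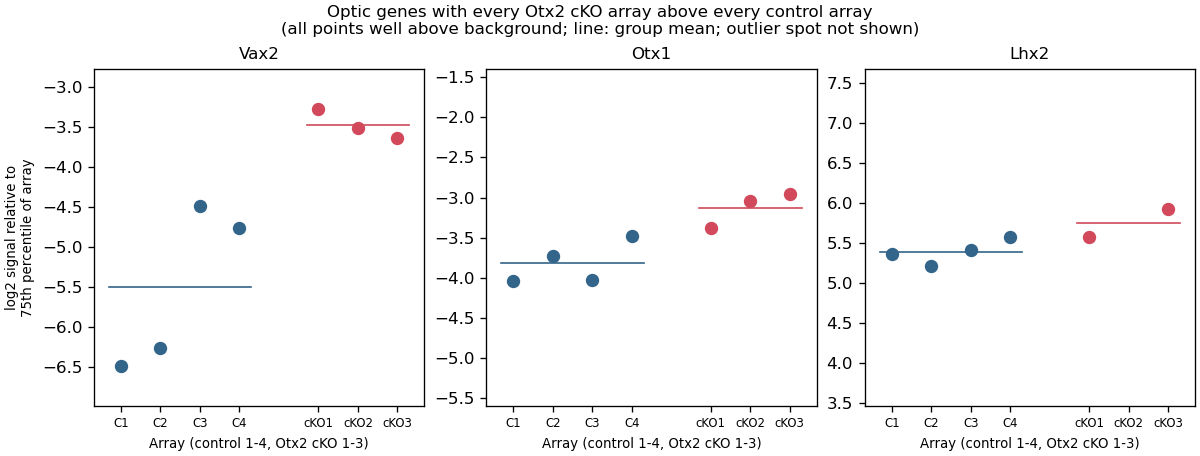
Log2 signal (relative to the 75th percentile of the array) of Vax2, Otx1 and Lhx2 on 4 control arrays (blue) and 3 arrays labelled Otx2 cKO (red); all points are well above background, lines are group means, and the outlier spot of Lhx2 on cKO embryo 2 is not shown. All red points lie above all blue points in each panel, the group means of Vax2 being -5.50 and -3.48. For Lhx2 the closest points all but touch, at 5.576 (cKO embryo 1) and 5.574 (control 4).

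Of these 16 genes 8 had a positive and 8 a negative difference, with a median of 0.004 beside 0.005 over all genes tested. The eye field genes Pax6 and Nr2e1 differed by 0.16 ± 0.15 and -0.001 ± 0.11, the ventral optic gene Vax1 by 0.23 ± 0.12 and Sox2 by -0.05 ± 0.08 (SE, n = 4 and 3). The T-box genes Tbx2, Tbx3 and Tbx5 of the optic vesicle had differences of -0.25 ± 0.25, -0.24 ± 0.59 and -0.18 ± 0.25 (SE). None of these passed.

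Relatives and cofactors of the members were measured alongside. Those reported here are Six2, Six4 and Six5, the Eya and Dach proteins that act with them, the Groucho-type corepressors Tle1 to Tle4 that Six3 and Hesx1 recruit, and Tfe3, Tfeb and Tfec, the relatives of Mitf. Of the 16 genes 15 were tested, and 0 rose and 0 fell (limma; unadjusted p under 0.05 in 0 with a positive and 1 with a negative difference); 8 differences were positive and 7 negative, with a median of 0.02. In 2 of the 15 the groups did not overlap, as in 11.8% of all genes tested. The gene with the smallest p was Tle2, at -0.63 ± 0.13 (SE; adjusted p = 0.214 in limma). All 3 arrays labelled Otx2 cKO were below all controls for Tle2, as in 6.99% of all genes tested. Six5 came next, at 0.17 ± 0.08 (SE; limma, adjusted p = 0.510), with all 3 above all controls, as in 4.85%. Six2, also a gene of mesenchyme, had a large error (0.16 ± 0.89). Tfeb was not tested, being well above background on 1 array.

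**Figure D4:**
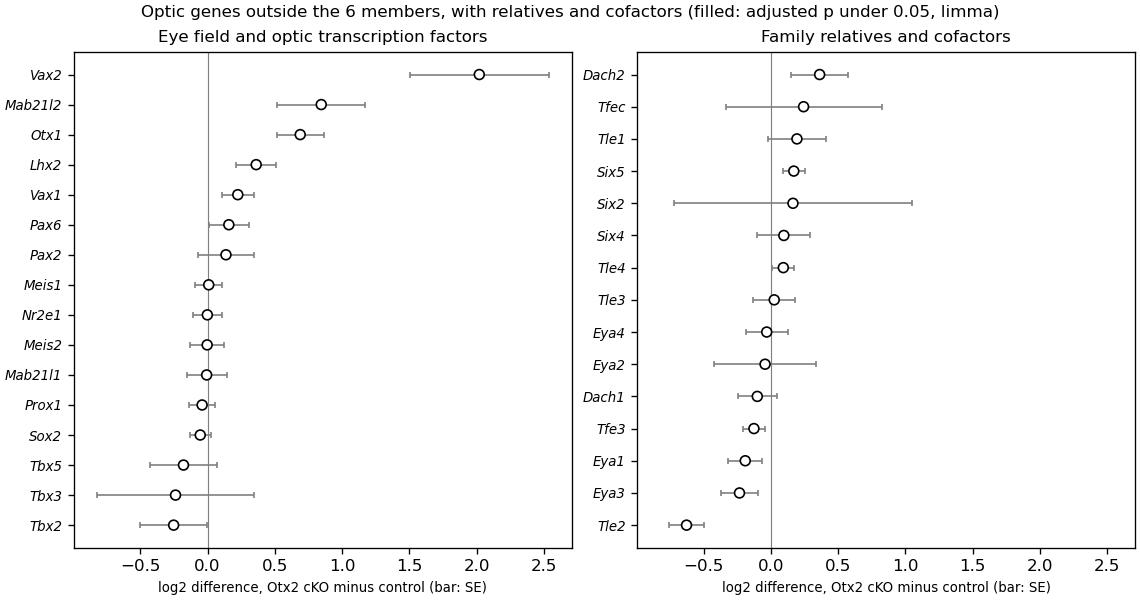
Log2 difference (Otx2 cKO minus control, bars are SE) of the 16 other eye field and optic transcription factors reported here and of the 15 tested relatives and cofactors; filled points have an adjusted p under 0.05 in limma. There is no filled point, Vax2 lies farthest out at 2.02, and most others lie near 0.

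Markers of eye, pituitary and pigment tissue were mostly under background. Of 6 named neural retina markers 3 were well above background on no array (Atoh7, Pou4f2 and Nrl), Crx was on 1, and Pou4f1 and Prdm1 were tested, with differences of 0.02 and -0.03 (limma; 0 passed, and 0 had an unadjusted p under 0.05). Summed, the retina markers reached 14.2% to 18.15% of the 75th percentile in controls and 15.7% to 19.98% in arrays labelled Otx2 cKO. Most of that sum was Pou4f1 and Prdm1, so it says little of the other retina markers. Of 5 named pituitary placode markers Lhx3 and Tbx19 were above background on no array. The hormone subunit gene Cga and the LIM homeobox gene Lhx4 differed by 0.78 ± 0.28 and -0.07 ± 0.35 (SE; limma, adjusted p = 0.403 and 0.963), and 0 of 2 tested passed (1 positive at an unadjusted p under 0.05). The pituitary sum was 1.26% to 2.99% in controls and 2.41% to 4.32% in the others, highest in cKO embryo 2, the array with Six6. That array was also the highest for the sums of pigment cell, mesenchymal, endothelial and macrophage markers. Cga and Lhx4 were themselves dim, with group means of -6.93 to -6.15. The part of any of these cells in the Six6 and Mitf values was not tested.

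Of 9 named pigment cell markers 4 (Tyr, Tyrp1, Oca2 and Rpe65) were above background on no array and 0 of the 3 tested passed (limma; 0 at an unadjusted p under 0.05). The melanosome gene Pmel stood at -6.10, -6.10, -3.12 and -6.00 in controls 1 to 4 and at -5.92, -2.66 and -5.92 in cKO embryos 1 to 3. It was thus high in control 3 and cKO embryo 2, the highest array of its group on the second Mitf probe in each case, but on the brighter Mitf probe control 4 and cKO embryo 3 were the highest. Slc45a2 had a difference of 0.58 ± 0.37 (SE; limma, adjusted p = 0.620). The pigment sum was 21.1% to 113.7% in controls and 16.0% to 123.6% in the others. Most of it was Dct, an enzyme of melanin synthesis that is named after its values were seen. Dct stood at 0.14, -2.33, -1.73 and 0.004 in controls 1 to 4 and at -0.40, 0.04 and -2.74 in cKO embryos 1 to 3. Its order differed from that of Pmel, since Dct was low in control 3 and high in controls 1 and 4. Without Dct the sum was 1.22% to 14.6% in controls and 1.07% to 20.5% in the others.

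Macrophage markers, of cells that also express Mitf, summed to 212.6% to 327.7% in controls and 217.2% to 395.7% in arrays labelled Otx2 cKO, again highest in cKO embryo 2; 0 of 7 passed, with Aif1 at 0.23 ± 0.21 and Cx3cr1 at -0.19 ± 0.24 (limma; 0 at an unadjusted p under 0.05). Endothelial markers summed to 623.7% to 1052% and 580.1% to 1292%, and 0 of 6 passed (Robo4 -0.38 ± 0.19 without the outlier spot of cKO embryo 2, Cldn5 -0.25 ± 0.32). Mesenchymal markers also had 0 of 11 past the test (Dcn -2.67 ± 1.82 with 2 outlier spots left out, n = 3 and 2; Rgs5 -0.51 ± 0.37). Choroid plexus markers summed to 14.1% to 25.4% and 14.3% to 24.1%, with Ttr above background on no array and 0 of 4 past the test (Kl 0.61 ± 0.36, Clic6 -0.42 ± 0.28). In these 3 lists limma gave 0 genes with an unadjusted p under 0.05. Among markers of the subpallium itself 0 of 13 passed (limma; unadjusted p under 0.05 in 0 with a positive and 3 with a negative difference), with -1.19 ± 0.18 for Lhx6 and -0.68 ± 0.16 for Gad1.

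The hypothalamus, where Rax, Six3 and Six6 are also at work in the embryo, was represented by 12 genes, of which 10 were named, 8 were tested, 2 rose and 0 fell (limma; unadjusted p under 0.05 in 3 with a positive and 1 with a negative difference), beside 0.0824% and 0.112% of all genes tested. The homeobox genes Hmx3 and Hmx2 rose, by 2.11 ± 0.24 and 1.72 ± 0.16 (SE, n = 4 and 3; limma, adjusted p = 0.0323 and 0.0182), and were already known from these data when the list was written. The Hmx2 call was lost without control 2, 3 or 4 or cKO embryo 2 or 3, and the Hmx3 call without those and without control 1. With slide as a block both were lost (limma, adjusted p = 0.0528 and 0.0726), as they were within slide 2, within litter 2, with the replicate block (0.308 each) and without the filter on dim probes; the mean over its probes ended the Hmx2 call. Each was called in 10 of 21 alternatives (adjusted p 0.00449 to 0.339 for Hmx2 and 0.00493 to 0.645 for Hmx3 in limma). The differences kept their sign in all 21, at 1.39 to 1.79 for Hmx2 and 1.79 to 2.27 for Hmx3. The summed level of the 10 named genes was 169.9% to 248.1% in controls and 361% to 478.7% in arrays labelled Otx2 cKO. Hmx2 and Hmx3 carried that difference: without them the sum of the other 8 was 126.1% to 187.9% and 160.6% to 168.6%, and the groups overlapped. Most of this smaller sum was Pomc, which is named after its values were seen. Pomc stood at 0.23 to 0.83 in controls and at 0.60 to 0.68 in cKO embryos. The smaller sum therefore says little of the dimmer genes in the list. Otp and Bsx were above background on no array. Sim1 stood at the floor in controls 1 and 2, both on slide 1, and at -5.79 and -6.11 in controls 3 and 4; in cKO embryos 1 to 3 it stood at -5.69, -4.87 and -4.86. Nkx2-2 ran the other way, at -6.44 to -5.19 in controls and at the floor, -6.72 and the floor in cKO embryos 1 to 3. Neither passed the test, and both were named after their values were seen.

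The genes whose pattern over the 7 arrays was most like that of a member were found by Pearson's r among genes with an SD of at least 0.2 and a value on every array. For Six3 these were the potassium channel gene Kcnq1 (r = 0.949), Qrfprl (r = 0.936) and the homeobox gene Meox1 (r = 0.934), the highest of 5811 genes. Without the 2 arrays farthest from the Six3 median, cKO embryo 3 and control 2, r was 0.977, 0.784 and 0.961. For the brighter Mitf probe they were the interferon-inducible gene Ifi27l2a (r = 0.978), Olfr1394 (r = 0.970) and the protease gene Klk7 (r = 0.962), the highest of 5810 genes, and r was 0.962, 0.961 and 0.930 without cKO embryos 2 and 3. Spearman's rank correlation was 0.893, 0.857 and 1.0 for the Six3 set and 0.964, 0.964 and 0.929 for the Mitf set. In the brighter Mitf probe and in Ifi27l2a, Olfr1394 and Klk7 alike, every array on slide 1 lay below every array on slide 2. The part of slide in their likeness was not tested. Meox1 in cKO embryo 3 and Olfr1394 in control 2 were at the floor. These are the extremes of 5811 and 5810 comparisons over 7 arrays that share groups and slides, so they describe likeness in these arrays and carry no test.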

How the data were processed

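Cy3-labelled RNA of 1 embryo was hybridised to each 1-colour Agilent whole mouse genome array, per the labels' protocols. The deposited spot intensity was background-subtracted and detrended within each array by Agilent Feature Extraction 10.7.3.1, per the file headers; the submitters' processing notes name version 10.5. The authors' deposited value table holds log2 values whose normalization was not stated; its order followed the median spot signal (rank correlation at least 0.99998). Control spots and outlier spots (1.24% to 2.51% per array) were left out here. Signals were divided by the array's 75th percentile (1901 to 2753 scanner units), floored at a log2 value of -7.59 (the highest of the arrays' lowest signals well above background), taken to log2 and averaged over a probe's spots. RefSeq accessions in a GRCm38.p6 gene table named 24844 of 41174 probes with 1 symbol; 16330 had none and 0 several. Gene coordinates are not printed because the array design uses another build; promoter stretches come from RefSeq, GRCm38.p6.

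Each gene's value is that of its brightest probe, and a gene entered the test when at least 50% of that probe's spots were well above background on at least 3 arrays and 2 values per group were left. The groups were compared with limma 3.58.1 in R 4.3.3 (lmFit, eBayes) and Benjamini-Hochberg adjustment at 0.05, after a test on simulated data; SE is limma's. Replicates are separate embryos, and their number limits the precision. Genes named by rule are the 6 members, Otx2 and the 3 genes most like each tested member. Listed genes past the threshold are also named or, in a list with none, the 2 with the smallest p. Some others are marked as chosen later. The rest were named outside this rule, among them Pax6, Nr2e1, Vax1, Sox2, Tbx2, Tbx3, Tbx5, Six2 and the markers not detected. Members and lists were chosen with earlier results of these data known. Summed levels of a marker list keep outlier spots, so that every array sums the same genes. The replicate numbers of the titles did not pair the samples. Some list genes are not reported here and were left out of the list counts and sums, though not out of the fit.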

Additional observations from a re-analysis of the deposited data

Results flagged for a closer look

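In 3 of 40 sets of control values checked, 1 of the 4 controls stood apart from the other three by a gap larger than Dixon's critical value, which chance alone gives in about 1 of 20 sets. Pmel was high in control 3, at -3.12 on the log2 scale. Hmx2 was low in control 1, at -2.86, and still below every array labelled Otx2 cKO. The endothelial gene Cldn5 was low in control 2, at 1.38. No set of member values was among the 3, and none of these was weighed further.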

How the results depend on the processing

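Of 22 alternatives, normexp background correction on the median spot signal was chosen after seeing the data, because the files hold no mean spot signal. The count of 26 genes called was 42 with that correction, 43 in the authors' value table, 1 without the filter on dim probes, 13 with slide as a block and 52 with a variance trend. It was 0 within slide 2, 0 within litter 2 and 0 with the replicate block (limma; 388 and 825, 319 and 394, and 572 and 814 genes up and down with unadjusted p under 0.05). That block uses the title numbers of 3 pairs, whose deviations correlated at 0.11, -0.53 and 0.03. Leaving out 1 array gave 0 to 32 calls: 0 without control 3, control 4 or cKO embryo 3 (limma; 410 and 624, 518 and 803, and 371 and 492 at that unadjusted p), 3 without cKO embryo 2, 7 without control 2 and 12 without control 1. Optic factors and relatives and cofactors reported here had 0 calls in all alternatives run. The Six3 difference ran from -0.19 to 0.01 over 22 alternatives and was positive in 1, without cKO embryo 3. The Mitf difference, of the brighter probe except where a gene's probes were averaged, ran from 0.51 to 1.47 over 21, always positive. Neither moved by as much as the SD within groups. The second Mitf probe alone did not keep its sign. Its difference was 0.32 in the main setting and 0.65 within slide 1. It was -0.03 within slide 2, -0.06 within litter 2 and -0.02 in the authors' value table. Signal over background limits Vsx1, Hesx1 and Six6: the first pair has no measured level, and Six6 has 1.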
